A study of Mus musculus with 12 samples.

Results

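The nuclear-encoded genes of oxidative phosphorylation were followed in astrocytes, progenitors and stem cells of the mouse dentate gyrus. They were the protein-coding genes whose symbols begin with Nduf followed by a, b, c, s or v and a number, Uqcr, Cox4 to Cox8 or Atp5, together with Sdha, Sdhb, Sdhc and Sdhd, with pseudogenes left out. This rule gave 84 of the 50600 genes of the count table. By symbol alone, 37 were assigned to complex I, 4 to complex II, 8 to complex III, 18 to complex IV and 17 to complex V. The rule used symbols alone, but the set was chosen with earlier results of these data known.

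Oxidative phosphorylation takes place at the inner mitochondrial membrane. Complex I takes electrons from NADH and complex II takes them from succinate, both pass them to ubiquinone, complex III hands them on to cytochrome c, and complex IV reduces oxygen with them. Complexes I, III and IV pump protons, and complex V, the ATP synthase, makes ATP from the returning protons. Apart from complex II, each complex also contains subunits made inside the mitochondrion from its own DNA. Neural stem cells of the adult dentate gyrus are known for a metabolism that relies strongly on glycolysis and fatty acids, and mitochondrial function is known to be required as their progeny mature into neurons.

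Cells came from adult Nestin-GFP mice of 6 to 9 weeks. In these mice a Nestin reporter drives green fluorescent protein in stem cells and progenitors, and it also marks some cells of the vessel wall. Live cells that lacked CD31, CD45, O1 and O4, antigens of endothelial, immune and oligodendrocyte-lineage cells, were sorted as stem cells when they carried both GFP and the glutamate transporter GLAST, as progenitors when they carried GFP alone, and as astrocytes when they carried GLAST alone. All 3 groups shared the reporter line, the tissue and the age, and no treatment was named. Each library was made from 50 cells, with 4 libraries per cell type, and nothing in the labels tied a library to an animal, so p-values measure the spread between these libraries. The stem cell libraries are numbered 1 to 4, and the astrocyte and progenitor libraries, whose columns carry no number, are called a to d.

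Levels are given as CPM, counts per 1000000 counts on genes after scaling by edgeR's TMM factors. Total counts were between 5357232 and 6253680 in astrocytes, between 9041498 and 12535028 in progenitors and between 5031166 and 10435711 in stem cells. A count of 3, used as the floor of detection, corresponded to between 0.207 and 0.653 CPM. Intervals and floors of this kind cover counting error only, since no molecular identifiers were used. In libraries of sorted cells, fewer cells of a type and less RNA per cell cannot be told apart.

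Of the 84 genes, 74 were above 3 counts in all 12 libraries, 9 in some of them, and 1, Cox8c, had 0 counts in all 12. Astrocyte a stood apart from the other astrocyte libraries. It held the highest level of the 4 for 48 of these 74 genes, against 36.6% of all 5971 genes with at least 10 counts in each astrocyte library. The median log2 ratio to the mean of the other 3 was 0.69, against 0.05 for those 5971 genes. The excess was larger for short transcripts. The 37 genes whose longest transcript is at most 1025.5 bases had a median log2 ratio of 1.28 in astrocyte a, and the 37 longer ones had 0.26. Among the 5971 genes, those of at most that length had 0.69 and the longer ones -0.05, so the shift was not particular to the respiratory genes. The median longest transcript was 988.5 bases over the 84 genes, against 3025 bases over genes with 10 counts in at least 4 libraries. In stem cell 4 the medians of the 37 shorter and 37 longer genes were 0.44 and -0.14. Those of all genes with at least 10 counts in each stem cell library were 0.19 and -0.17. The part of transcript length in the differences between cell types was not tested. The sum over the 84 genes, the median fold changes and the counts of calls are also given with single libraries left out. Sums and shares by complex and mean levels of single genes include all libraries unless stated.

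**Figure D1:**
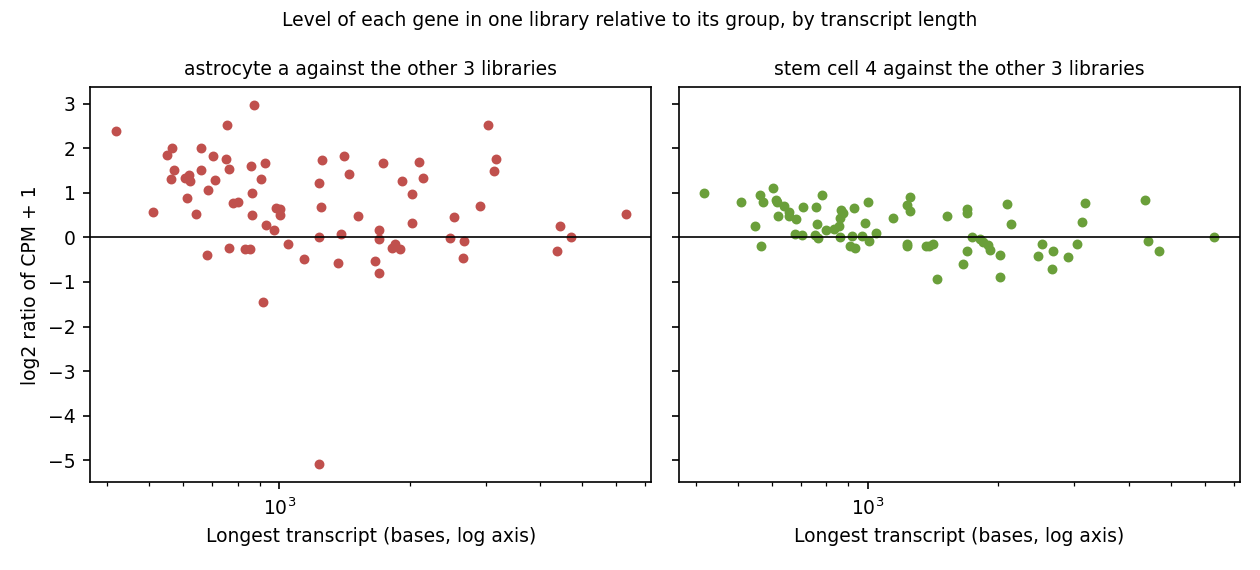
Log2 ratio of CPM + 1 in astrocyte a (left) and stem cell 4 (right) to the mean of the other 3 libraries of the same cell type, for the 74 genes above 3 counts in all libraries, against the length of the longest annotated transcript (log axis). Points lie higher at short lengths, with medians of 1.28 (short) and 0.26 (long) in astrocyte a and 0.44 and -0.14 in stem cell 4.

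Regulatory sequence near the start of these genes was examined because NRF1, the ETS factor GABP and YY1 are known regulators of respiratory chain genes. RefSeq windows on GRCm38.p6, from 250 bases before to 50 bases after the gene start, were found for 66 of the 84 genes by symbol. Both strands were searched. The NRF1 motif, a palindrome printed in capitals in the first 4 stretches below, was found in 5 of 66 windows (7.58%), against 1.47% of 17492 protein-coding genes with a window. The YY1 motif AAGATGGCG was found in 7 (10.6%), against 2.14%, and the ETS motif CCGGAAG in 16 (24.2%), against 12.95%. Windows of 25 genes held at least 1 of the 3 motifs and 3 held more than 1. The end of the ETS motif can overlap the first letters of the YY1 motif, and a window could hold several motifs. Among the 13 genes called below in progenitors against stem cells, 11 had a window and 3 of those held a motif. The stretches below lie upstream of the start and are written 5′ to 3′ on the strand of the gene, with the named motif in capitals. They show the 4 upstream NRF1 matches, an ETS match for complex II and complex III each, and the YY1 match of Atp5j, whose stretch ends with an ETS motif in lower case. CTTCCGG is the ETS motif read on the other strand.
Ndufa11, NRF1, chr17:56717677-56717736, plus strand: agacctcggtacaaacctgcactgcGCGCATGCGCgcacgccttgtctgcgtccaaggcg
Cox6a1, NRF1, chr5:115349086-115349145, minus strand: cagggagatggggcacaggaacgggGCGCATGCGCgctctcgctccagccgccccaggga
Atp5g2, NRF1, chr15:102671055-102671114, minus strand: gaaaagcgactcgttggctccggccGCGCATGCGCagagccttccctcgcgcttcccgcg
Atp5k, NRF1, chr5:108434415-108434474, minus strand: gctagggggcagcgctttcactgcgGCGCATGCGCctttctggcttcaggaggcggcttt
Sdhd, ETS, chr9:50603864-50603920, minus strand: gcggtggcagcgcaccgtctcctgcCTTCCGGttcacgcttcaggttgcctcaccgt
Uqcr11, ETS, chr10:80406856-80406912, minus strand: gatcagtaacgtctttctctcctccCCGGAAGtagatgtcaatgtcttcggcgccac
Atp5j, YY1, chr16:84835031-84835089, minus strand: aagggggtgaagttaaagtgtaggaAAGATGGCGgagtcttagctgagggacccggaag
The far end of the Cox6a1 stretch also lies in an exon of Gm42903, a long noncoding RNA on the other strand. A match is a description of the letters in the window and was not tested for binding.

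Summed over the 84 genes, the level was lowest in progenitors. The sums were 12065, 11949, 11469 and 10665 CPM in progenitors a to d and 16295, 15877, 16348 and 17303 CPM in stem cells 1 to 4. No progenitor library reached the lowest stem cell library, and the ratio of the means was 0.701 (11537 ± 636 against 16456 ± 603 CPM, SD, n = 4 each). Astrocytes gave 28343, 13851, 13285 and 13316 CPM, a mean of 17199 ± 7434 (SD, n = 4). Without astrocyte a the mean was 13484 ± 318 CPM (SD, n = 3), which lies between the other cell types. The scaling bears on the size of these differences, because TMM factors were 0.779 to 0.916 in astrocytes, 1.15 to 1.23 in progenitors and 0.933 to 1.07 in stem cells. As a share of the unscaled counts, the genes took 1.28% to 1.46% in progenitors, 1.52% to 1.85% in stem cells and 2.21%, 1.21%, 1.13% and 1.22% in astrocytes a to d. With unscaled totals, progenitors therefore still lay below stem cells without overlap, at a ratio of 0.855, whereas the 3 other astrocyte libraries lay below progenitors.

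Under TMM scaling every complex took part in the lower sum of progenitors. The ratio of progenitors to stem cells was 0.669 for complex I, 0.673 for complex II, 0.685 for complex III, 0.635 for complex IV and 0.781 for complex V, and in each the libraries did not overlap under TMM scaling. With unscaled totals complex I alone remained without overlap, at a ratio of 0.816, and the ratios for complexes II to V were 0.826, 0.834, 0.770 and 0.955 with overlapping libraries. Complex IV differed most between astrocyte libraries, with 9486, 3158, 3938 and 2017 CPM in a to d, against 1568 to 2112 CPM in progenitors and 2424 to 3349 CPM in stem cells. Its astrocyte mean was 4650 ± 3319 CPM (SD, n = 4), and 3038 ± 966 CPM without astrocyte a (SD, n = 3). As a share of the counts on the 84 genes, complex IV took 25.3% ± 8.06 in astrocytes, 15.9% ± 1.32 in progenitors and 17.6% ± 2.50 in stem cells, while complex V took 29.0% ± 4.92, 36.2% ± 0.799 and 32.6% ± 2.67 (SD, n = 4 each).

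**Figure D2:**
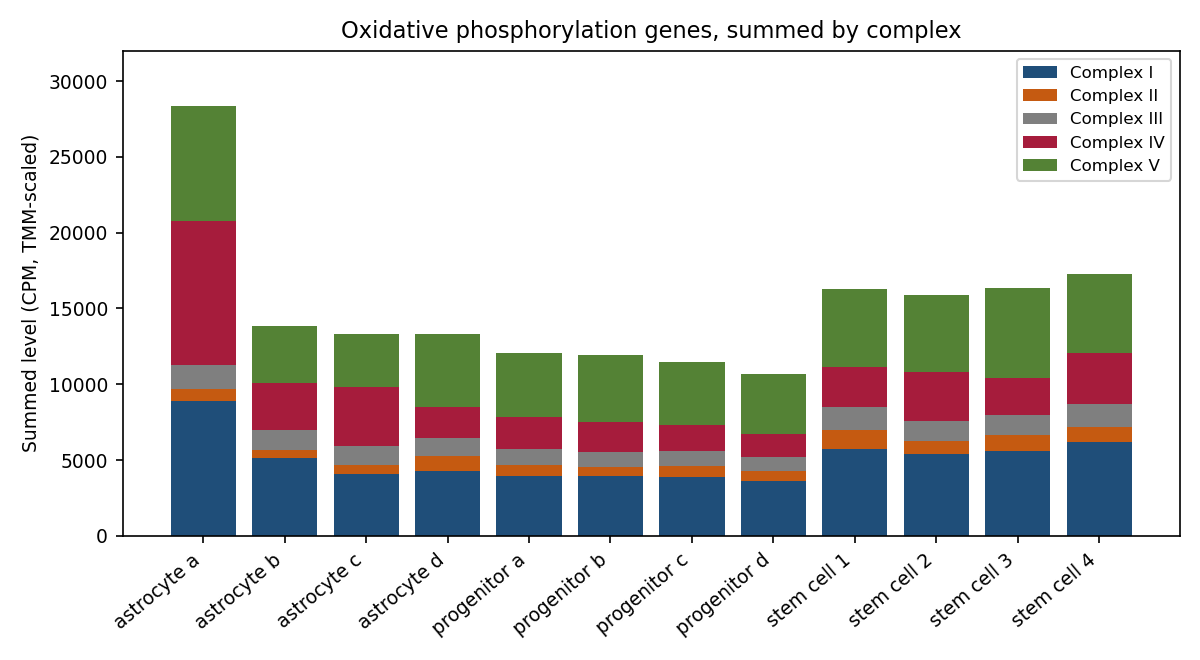
Summed level of the 84 genes in each library (CPM, TMM-scaled), with the bar divided by complex. The 4 progenitor bars end between 10665 and 12065 CPM, the stem cell bars between 15877 and 17303 CPM, and astrocyte a reaches 28343 CPM while the other astrocyte bars end between 13285 and 13851 CPM.

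Levels of different genes were compared per kilobase of merged exons, as means over the 12 libraries. Cox8a, a small subunit of complex IV, was the highest of all at 1061 CPM per kilobase, and Cox5a, a subunit on the matrix side, was the lowest complex IV gene above the floor in all libraries at 66.4. In complex V the range ran from 379 CPM per kilobase for Atp5b, the catalytic β subunit of the F1 head, to 15.2 for Atp5l, the g subunit of the membrane part. In complex I it ran from 486 for Ndufc2 to 11.7 for Ndufb2, both accessory subunits of the membrane arm. In complex III it ran from 214 for Uqcr11 to 70.8 for Uqcrc1, and in complex II from 129 for Sdhd, a membrane anchor, to 22.7 for Sdhc, the other anchor. The order of the means was not the same in each cell type. In astrocytes Ndufb9 (573 CPM per kilobase) exceeded Ndufc2 (460.1), and Sdhb (89.2) exceeded Sdhd (77.9). Ndufb9 was the higher in astrocyte a (1247 against 754) and Ndufc2 in astrocyte d (271 against 145), so their order depended on the library. In stem cells Uqcr10 (269) exceeded Uqcr11 (244), and in progenitors Cox7c (42.0) and Cox6c (44.3) lay below Cox5a (59.9). Taking the longest transcript as the length put Sdhb highest in complex II, at 193, and Uqcrq lowest in complex III, at 86.5. It also raised the median of complex V from 73.8 to 183 CPM per kilobase. Atp5l shares near-identical sequence with 9 other annotated genes, and the 8 of these in the table held 21.2% of the counts of Atp5l and its copies together, so its level is uncertain.

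Progenitors were compared with stem cells to ask how these genes differ between these sorted populations. Of 82 genes tested, 13 fell in progenitors and 0 rose (edgeR's quasi-likelihood test, p-values adjusted by Benjamini-Hochberg across 15427 genes). Among all genes tested, 3.66% were called lower, 4.95% higher and 8.6% in either direction. An unadjusted p under 0.05 was found for 40 of the 82 genes, against 21.2% of all genes. The log2 fold change was below 0 for 77 of 82 genes, against 48.2% of all genes, and its median was -0.60, against 0.04. For 32 genes every progenitor library lay below every stem cell library, against 7.64% of all genes tested, and for 0 genes above (11.7%). The count of calls depended on the setting. It was 1 with unscaled totals, 4 without a count filter, 0 with all 12 libraries in one fit, 27 with DESeq2, and 7, 3, 3 and 2 without progenitors a to d. With unscaled totals the median was -0.28 while that of all genes was 0.36. The difference between the medians of these genes and of all genes was -0.64 under both scalings. A change of scaling moves all genes nearly alike, so it could hardly alter this difference. It was -0.51 with at least 10 counts in every library, -0.81 without a count filter and -0.74 with DESeq2.

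Among the 13 called genes, 7 belong to complex I. Ndufc2, an accessory subunit of the membrane arm (chr7:97400003-97407802, GRCm38), was at 255, 238, 249 and 216 CPM in progenitors and at 581, 394, 444 and 635 CPM in stem cells. The ranges were well apart, and the log2 fold change was -1.13 (SE 0.19, adjusted p = 0.0064, edgeR). It was called in 6 of 7 other settings and in 8 of 8 fits that left out a library. Ndufb10, another membrane arm subunit (chr17:24722060-24724478), was at 146, 128, 126 and 110 CPM in progenitors and at 224, 221, 211 and 250 CPM in stem cells. Its log2 fold change was -0.86 (SE 0.17, adjusted p = 0.012, edgeR), and it too was called whichever library was left out. Ndufs7, a core subunit that carries an iron-sulfur cluster next to the ubiquinone site, was at 136, 135, 191 and 175 CPM in progenitors and 239, 276, 296 and 340 CPM in stem cells. Its difference was -0.88 (SE 0.20, adjusted p = 0.021, edgeR).

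Among the other called complex I genes, Ndufv2, a core subunit of the NADH-oxidising module with an iron-sulfur cluster, had levels of 83.7 to 117 CPM in progenitors and 145 to 247 CPM in stem cells, and a log2 fold change of -0.89 (adjusted p = 0.035, edgeR). Ndufb3, of the membrane arm, had 52.8 to 60.7 CPM against 84.9 to 122 CPM, with -0.92 (adjusted p = 0.028). Ndufa12, an accessory subunit of the peripheral arm, had 67.2 to 90.4 CPM against 124 to 157 CPM, with -0.83 (adjusted p = 0.026). None of these overlapped between the cell types. In the 8 fits that left out a library, Ndufv2 kept its call in 1, Ndufb3 in 2 and Ndufa12 in 3. Ndufb9, of the membrane arm, had 143 to 210 CPM against 287 to 310 CPM, with -0.73 (adjusted p = 0.025), but 19.5% of its exonic length overlaps another gene on the same strand, so its counts are less certain. Ndufb9 and, in complex V, Atp5d are named here to complete the calls, and were chosen after their values were seen.

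In complex IV the called genes were 4 small nuclear subunits that surround the catalytic core. Cox8a (chr19:7215153-7217616) was at 366, 278, 267 and 263 CPM in progenitors and at 457, 756, 470 and 668 CPM in stem cells. The log2 fold change was -1.03 (SE 0.21, adjusted p = 0.014, edgeR), and it was called in 5 of 7 settings and 6 of 8 fits that left out a library. Cox4i1, the ubiquitous form of the subunit through which ATP regulates the enzyme (chr8:120668222-120674207), was at 586.5, 498, 457 and 436 CPM in progenitors and at 745, 796, 721 and 747 CPM in stem cells. Stem cell libraries lay close together here, and the difference was -0.63 (SE 0.14, adjusted p = 0.021, edgeR). Cox7c had 39.6 to 57.2 CPM against 78.9 to 143 CPM, a log2 fold change of -1.15 (SE 0.28, adjusted p = 0.029, edgeR), and was called in 2 of 8 fits that left out a library. Cox6a1, the widely expressed form of subunit VIa (chr5:115345642-115348981), had 136 to 185 CPM against 224 to 334 CPM, with -0.73 (SE 0.20, adjusted p = 0.048, edgeR). It lost the call in all 8 fits that left out a library, with adjusted p between 0.051 and 0.15.

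The remaining calls were 1 gene each in complexes III and V. Uqcr10, a small accessory subunit of complex III, was at 83.0, 86.2, 78.7 and 61.7 CPM in progenitors and at 138, 159, 101 and 231 CPM in stem cells, a log2 fold change of -1.05 (SE 0.27, adjusted p = 0.042, edgeR). Uqcr10 kept its call in 1 of 8 fits that left out a library. A near-identical copy held 14.35% of the counts of the pair, so the level of Uqcr10 is uncertain. Atp5d, the δ subunit of the central stalk of the ATP synthase (chr10:80138632-80145818), was at 245, 223, 219.5 and 208 CPM in progenitors and at 382, 383, 331 and 328 CPM in stem cells. The ranges did not overlap, and the difference was -0.70 (SE 0.15, adjusted p = 0.015, edgeR). No gene of complex II passed the test.

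**Figure D3:**
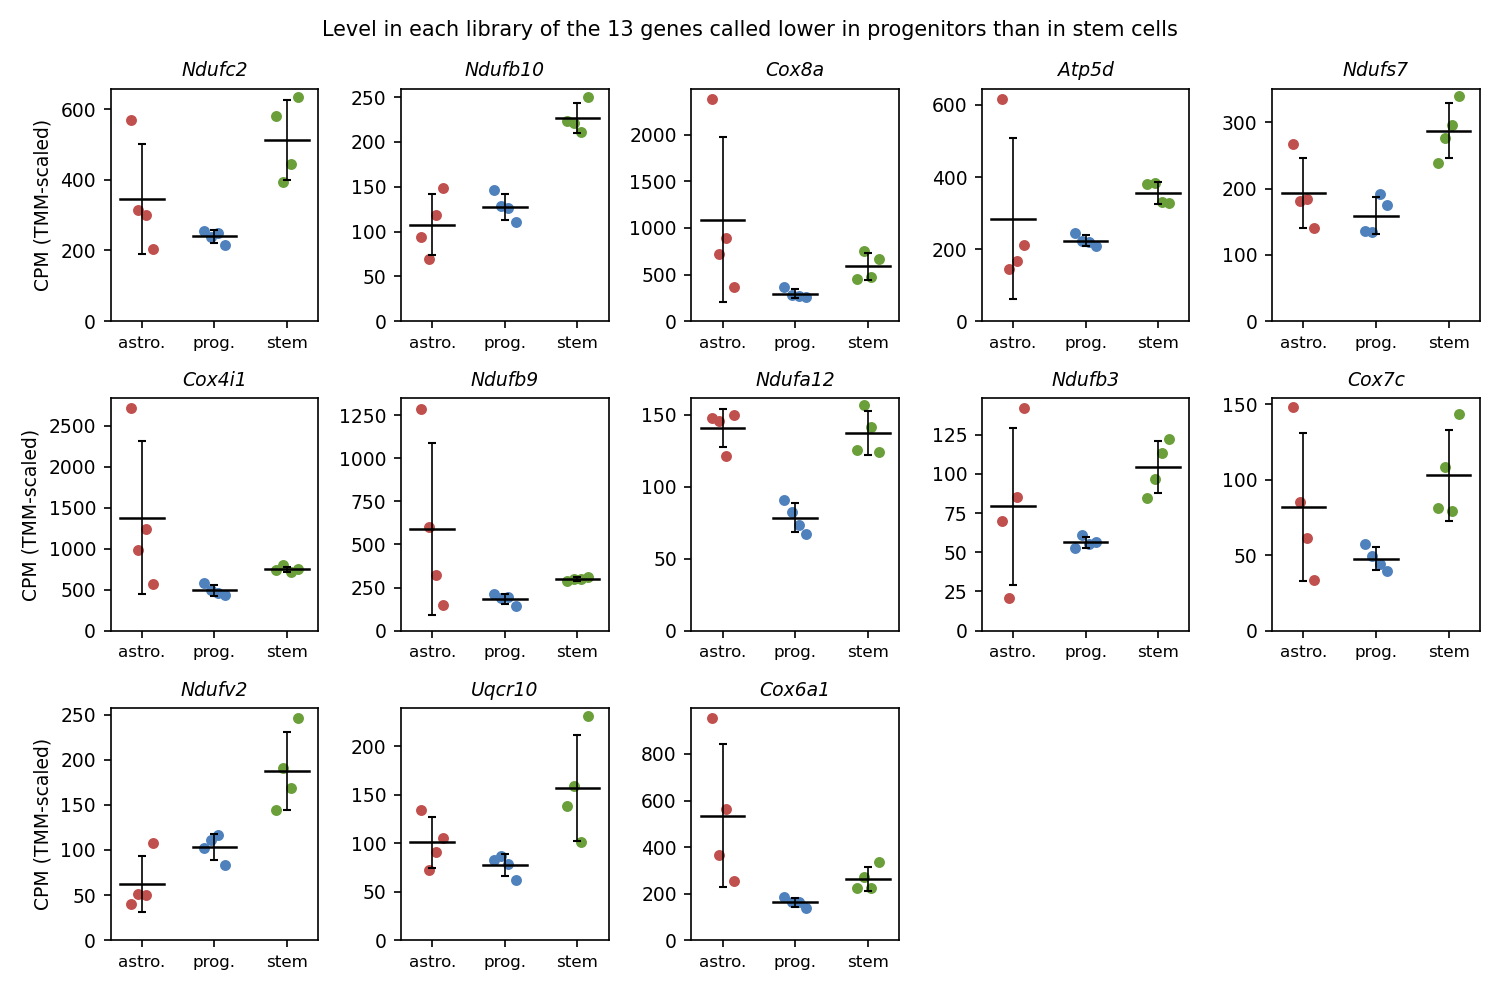
Level (CPM, TMM-scaled) in each of the 12 libraries of the 13 genes called lower in progenitors than in stem cells, with points for libraries, horizontal lines for group means and bars for the SD (n = 4). Progenitor points lie below all stem cell points in every panel, while astrocyte points spread widely, as for Cox8a between 368 and 2380 CPM.

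None of the genes chosen as catalytic subunits passed the test, and their values ran in the same direction under TMM scaling. Sdha, the flavoprotein that oxidises succinate, was at 275, 191, 268 and 293 CPM in progenitors and at 566, 387, 392 and 329 CPM in stem cells, with a log2 difference of -0.73 (SE 0.21, adjusted p = 0.061, edgeR). Sdhb, the iron-sulfur subunit of complex II, had a difference of -0.67 (adjusted p = 0.067), and Uqcrc1, a core protein of complex III, one of -0.64 (adjusted p = 0.060). Libraries did not overlap for these 3 genes. The iron-sulfur protein of complex III, Uqcrfs1, had -0.21 (adjusted p = 0.61), and the electron entry subunits Ndufs1 and Ndufv1 had -0.46 (adjusted p = 0.49) and -0.38 (adjusted p = 0.53). The α and β subunits of the ATP synthase were among the most abundant of all. Atp5b was at 1364, 1613, 1378 and 1363 CPM in progenitors and at 1724, 1476, 2282 and 1495 CPM in stem cells, with a difference of -0.32 (SE 0.17, adjusted p = 0.32, edgeR). Atp5a1 had 767 ± 67.1 CPM against 889 ± 155 CPM (SD, n = 4 each) and a difference of -0.24 (adjusted p = 0.44). With unscaled totals the differences of Atp5a1, Atp5b and Uqcrfs1 turned to 0.081, 0.013 and 0.11.

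**Figure D4:**
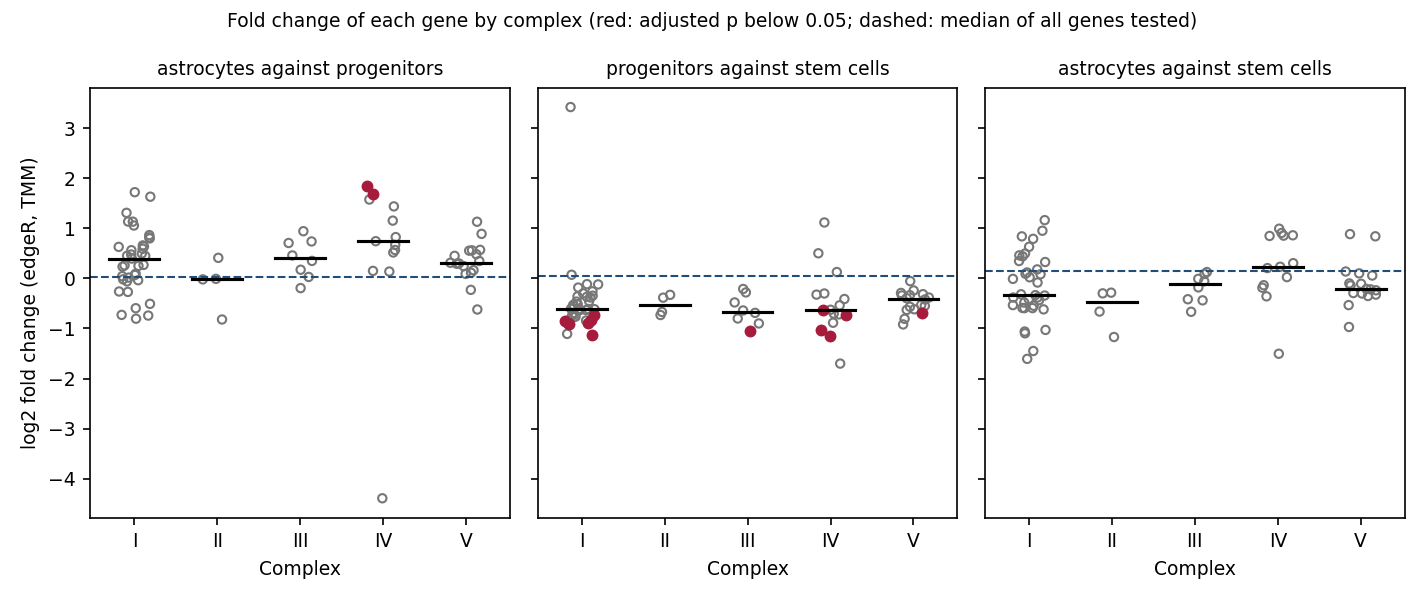
Log2 fold change of each tested gene by complex in the 3 comparisons (edgeR, TMM), with red points for adjusted p below 0.05, black lines for the median of a complex and a dashed line for the median of all genes tested. In progenitors against stem cells the medians of the complexes lie between -0.66 and -0.42, below the dashed line at 0.04.

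Length and other cell types moved with this comparison. The 43 shorter genes had a median log2 fold change of -0.63 and held 10 of the calls, while the 39 longer ones had -0.40 and 3 calls. All genes tested, split at the same length, had -0.16 and 0.08. Without stem cell 4, 8 genes were called, 7 of them among the 13. Markers of mural cells, the contractile and pericyte cells of vessels, were high in progenitors, where the summed level of 8 genes was 294 to 2693 CPM, against 64.4 to 104 CPM in stem cells. The oligodendrocyte list of 10 genes summed to 1920 to 2907 CPM in progenitors and 535 to 961 CPM in stem cells, and none of its genes was at the floor in all 4 libraries of either. Of its 8 tested genes, 3 were called higher in progenitors, Olig1, Pdgfra and Cspg4, the last of which is also in the mural list. For 4 of the 8 the log2 fold change was below 0, and the median was 0.27. The sums of the progenitor list (10 genes, 388 to 1090 against 14.9 to 85.3 CPM) and of the stem cell list (775 to 988 against 1399 to 2532 CPM) followed the labels. Of 8 tested genes of the stem cell list, 7 had a log2 fold change below 0 and 5 were called lower in progenitors. Lpar1 of this list was at the floor in all stem cell libraries. Nes itself was at the floor in all astrocyte libraries, which were sorted without GFP. The paper expected Nes in stem cells as well as progenitors, but reports it in progenitors only, and it failed the paper's filter. The astrocyte list of 10 genes summed to 8483 to 11404 CPM in progenitors and 26501 to 35599 CPM in stem cells. Their part in the lower levels of the respiratory genes was not tested.

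Astrocytes were compared with progenitors next. Of 79 genes tested, 2 rose in astrocytes and 0 fell, against 2.45% called higher, 6.18% lower and 8.63% in either direction among 14806 genes (edgeR's quasi-likelihood test, Benjamini-Hochberg). The share called higher was thus near the background. An unadjusted p under 0.05 was found for 13 of 79 genes, against 18.9% of all genes. Astrocyte libraries lay above all progenitor libraries for 6 genes (5.98% of all genes) and below for 1 (14.9%). The log2 fold change was below 0 for 17 of 79 genes, against 49.1% of all genes, and its median was 0.41, against 0.03 for all genes tested. With unscaled totals 0 genes were called higher and 1 lower, and the medians were -0.048 and -0.43. When genes had to reach 10 counts in each library, the median was 0.050 against 0.14 for all genes, and without astrocyte a it was 0.18 against -0.13.

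Both called genes encode complex IV subunits. Cox6a1 was at 956, 365.5, 563 and 255 CPM in astrocytes a to d, against 136 to 185 CPM in progenitors, and the ranges did not overlap. The log2 fold change was 1.68 (SE 0.40, adjusted p = 0.026, edgeR). Cox8a was at 2380, 724, 887 and 368 CPM in astrocytes, against 263 to 366 CPM in progenitors. Its lowest astrocyte library lay just above the highest progenitor library, and the log2 fold change was 1.85 (SE 0.48, adjusted p = 0.040, edgeR). Without astrocyte a the log2 fold changes were 1.29 for Cox6a1 (adjusted p = 0.035) and 1.17 for Cox8a (adjusted p = 0.047, edgeR). Both were called in 4 of 7 other settings and in 3 of 8 fits that left out a library. Of 9 tested markers of mature neurons, 3 were called higher in astrocytes and 4 had a log2 fold change below 0, with a median of 1.85, and the sum of the list was 5797, 2082, 1993 and 663 CPM in astrocytes a to d, against 403 to 558 CPM in progenitors. Like Cox8a and Cox6a1, the list was highest in astrocyte a. So was the oligodendrocyte list, at 3599, 1422, 824 and 492 CPM in astrocytes a to d, against 1920 to 2907 CPM in progenitors. Of its 8 tested genes, 1 was called higher in astrocytes and 2 lower, and 5 had a log2 fold change below 0. The part of either list in the levels of Cox8a and Cox6a1 was not tested. The next genes did not pass. Cox4i1 was at 2721, 986, 1243 and 567 CPM in astrocytes, overlapping with progenitors, with a difference of 1.44 (SE 0.40, adjusted p = 0.056, edgeR), and Ndufb9 had 1.63 (adjusted p = 0.11).

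Astrocytes and stem cells were compared last, and 0 of 78 genes were called by edgeR's quasi-likelihood test, against 0.0468% of 12831 genes (6 genes in all). DESeq2 called 0 as well. An unadjusted p under 0.05 was found for 3 genes, Ndufv2, Ndufb10 and Cox6a1, against 9.55% of all genes, and the log2 fold change was below 0 for 47 of 78, against 45.4%. Ndufv2 was at 39.8, 51.7, 50.5 and 108 CPM in astrocytes and at 145, 191, 169 and 247 CPM in stem cells, with no overlap. Its difference was -1.61 (SE 0.48, adjusted p = 0.22, edgeR). Ndufb10 had 69.0 to 148.5 CPM against 211 to 250 CPM and a difference of -1.10 (adjusted p = 0.34), and Cox6a1, with overlapping libraries, had 0.99 (adjusted p = 0.45). Ndufv3, of the NADH-oxidising module, followed by unadjusted p with -1.06 (adjusted p = 0.53) and Cox4i1 with 0.85 (adjusted p = 0.54). Astrocyte libraries lay below all stem cell libraries for 6 genes (6.23% of all genes) and above for 0 (3.75%). The median log2 fold change was -0.16, against 0.14 for all genes, and -0.36, against 0.03, without astrocyte a.

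The genes varied far more between astrocyte libraries than between those of the other cell types. The median coefficient of variation over those of the 84 genes detected in a cell type was 0.588 in astrocytes, 0.155 in progenitors and 0.249 in stem cells, against 1.11, 0.385 and 0.597 for all genes that reached 10 counts in 4 or more libraries and were detected in the cell type. For 8 of the 74 genes above the floor in all libraries, the highest astrocyte library was at least 10 times the lowest, and for 0 genes in progenitors or stem cells. These genes were singled out by this spread, after their values were seen. Ndufa9, an accessory subunit of complex I that binds NADPH, was at 535, 198, 1.40 and 402 CPM in astrocytes a to d. Sdhb was at 6.74 CPM in astrocyte a, where the sum over all genes was highest, and at 149, 293 and 350 CPM in b to d. Ndufs6, a zinc-binding subunit of complex I, was at 104 and 48.1 CPM in a and c and at 2.02 and 1.63 CPM in b and d. Sdhd was at 7.78 CPM in astrocyte c and at 96.4 to 166 CPM in the others. The lowest astrocyte library was c for Ndufa9, Sdhd, Ndufa1 and Atp5c1, d for Ndufs6 and Ndufb6, b for Ndufa5 and a for Sdhb. All of these genes stayed within 2.17 times between progenitor libraries. The share of all genes with a range of at least 10 times was not counted. Genes with at least 10 counts numbered 9430 to 11655 in astrocyte libraries, 16389 to 17015 in progenitors and 13368 to 14175 in stem cells. The paper describes the astrocyte cDNA as of suboptimal quality. The part of library quality in these swings was not tested.

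**Figure D5:**
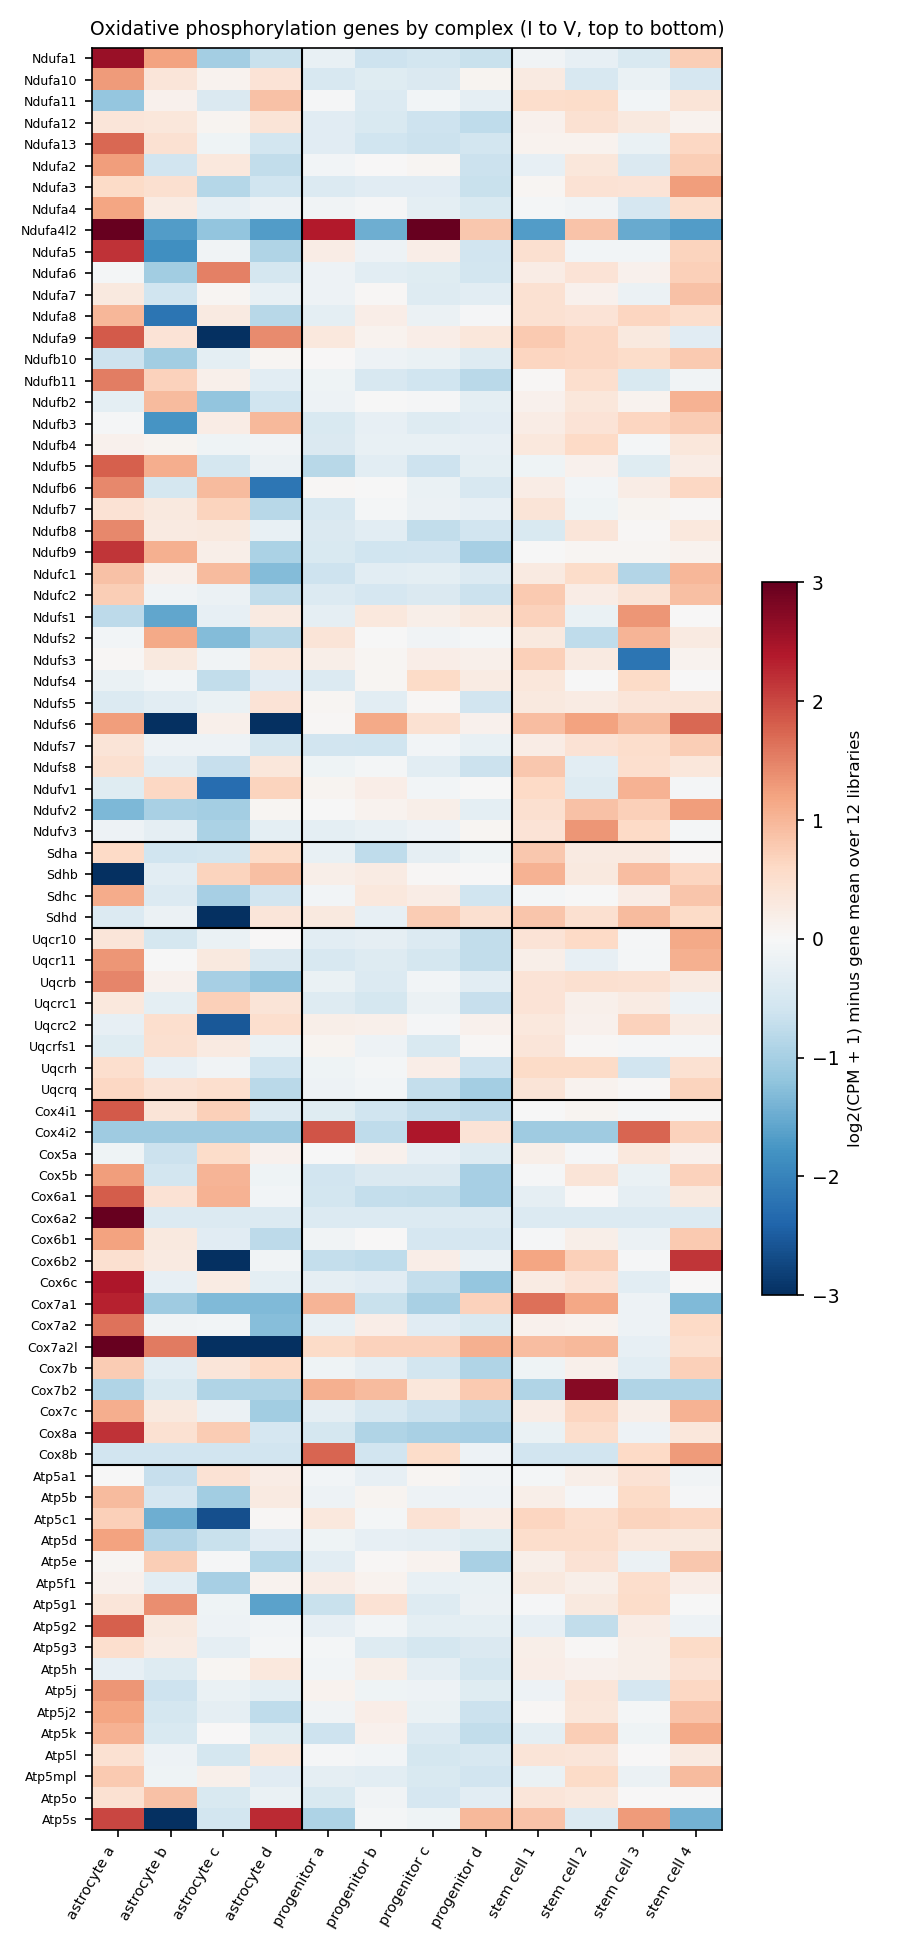
log2(CPM + 1) of the 83 detected genes in the 12 libraries minus the mean of each gene over all libraries, ordered by complex, with colours capped at 3 in both directions. Progenitor columns are mostly pale blue and stem cell columns mostly pale red, while astrocyte columns hold dark cells of both colours, such as Ndufa9 at 1.40 CPM in astrocyte c.

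Several complex IV subunits exist in a ubiquitous form and in a form known from particular tissues, such as muscle, lung or testis, and the ubiquitous forms carried nearly all of the counts. Cox4i1 averaged 1379, 494 and 752 CPM in astrocytes, progenitors and stem cells. Cox4i2, the form induced by low oxygen in lung and in some vessel cells, had 0 counts in all astrocyte libraries, had 97, 3, 112 and 21 counts in progenitors a to d, and had 49 and 13 counts in stem cells 3 and 4. Cox6a2, the heart and muscle form that is also known in some neurons, had 125 counts in astrocyte a and 0 in the other 11 libraries, which allows a level of up to 0.611 CPM in the shallowest of them. Astrocyte a also held the highest sum of the 10 mature neuron markers, as given above, and this sum was 270 to 512 CPM in stem cells. The oligodendrocyte list was highest in astrocyte a too. The part of neurons or of oligodendrocyte-lineage cells in the level of Cox6a2 was not tested.

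The other minor forms were low as well. Cox6b2, known from testis, was at 4.4 to 9.59 CPM in progenitors and 7.96 to 39.8 CPM in stem cells, against 148 to 212 and 189 to 367.5 CPM for Cox6b1. Cox7a1, the heart and muscle form, was at most 11.3 CPM in any library, whereas Cox7a2 averaged 129 CPM in progenitors and 168 CPM in stem cells, and was at 455, 136, 140 and 60.1 CPM in astrocytes a to d, so that its astrocyte level was high in library a alone. Cox7a2l, which joins respiratory supercomplexes, was at 391 and 137 CPM in astrocytes a and b and had 2 and 4 counts in c and d, while it stayed between 68.9 and 98.5 CPM in progenitors. Cox7b2, a testis form, was at 1.37 to 2.90 CPM in progenitors and had at most 2 counts in an astrocyte library, a difference that did not pass (log2 fold change -4.39, adjusted p = 0.051, edgeR, a value that depends on the prior count). In stem cells it had 87 counts in library 2 and 0 in the others, and its common relative Cox7b had 46.8 to 80.0 CPM in progenitors and 69.9 to 144 CPM in stem cells. Cox8b, the heart and muscle form, had at most 58 counts in a library, and Cox8c was not detected.

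In complex I, Ndufa4l2 is the hypoxia-induced relative of Ndufa4, a protein now counted with complex IV. Ndufa4 was at 84.2 to 112 CPM in progenitors and 81.7 to 166 CPM in stem cells, while Ndufa4l2 was at 15.6, 0.163, 33.5 and 4.64 CPM in progenitors a to d. Stem cell libraries held 0, 4.83, 0.124 and 0 CPM, and astrocyte a held 32.4 CPM, with at most 2 counts in the other astrocytes. The mural list summed to 2513, 294, 2693 and 1333 CPM in progenitors a to d, so that the order of the 4 libraries was lowest in b for Ndufa4l2, Cox4i2 and the mural list alike, and highest in c. The part of mural cells in the levels of both genes was not tested. Astrocyte a was not apart in the mural list, at 196 CPM against 58.1 to 206 CPM in the other 3. The 3 genes for the c ring subunit of the ATP synthase, which encode the same mature protein, were all present. Atp5g3 averaged 287, 206 and 311 CPM in astrocytes, progenitors and stem cells, Atp5g2 averaged 108 and 110.0 CPM in progenitors and stem cells and was at 441, 154, 114 and 119 CPM in astrocytes a to d, and Atp5g1 averaged 111, 78.2 and 100.2 CPM in the 3 cell types, although 16.2% of the counts of Atp5g1 and its near-identical copy lay on the copy.

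Other mitochondrial genes were counted by list, against the same 3.66% of all genes called lower in progenitors. Of 18 genes of the TCA cycle and pyruvate dehydrogenase, 2 fell in progenitors against stem cells, 0 rose, and 15 had a log2 fold change below 0, with a median of -0.39. Cs, citrate synthase, was at 164, 226, 187 and 185 CPM in progenitors and at 449, 443, 348 and 322 CPM in stem cells, and the difference of -1.06 (SE 0.18, adjusted p = 0.0065, edgeR) was about as large as that of Ndufc2. Idh2, the mitochondrial isocitrate dehydrogenase that makes NADPH, had 167 to 244 CPM against 273 to 494 CPM and a difference of -0.90 (SE 0.23, adjusted p = 0.040, edgeR). Among 5 carriers and inhibitors, Slc25a5, which exchanges ADP and ATP, was the 1 call. It was at 311, 321, 343 and 324 CPM in progenitors and at 581, 525, 533 and 468 CPM in stem cells (-0.73, SE 0.14, adjusted p = 0.010, edgeR). The other comparisons called 0 genes of these lists.

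Assembly and translation genes gave no call between progenitors and stem cells. Among 48 tested assembly factors of the respiratory complexes, 0 were called in progenitors against stem cells, with a median of -0.05, and 0 of 45 in astrocytes against stem cells. In astrocytes against progenitors 2 of 48 fell, where 6.18% of all genes were called lower. They were Coa5, a factor of complex IV (log2 fold change -6.62, SE 1.46, adjusted p = 0.019, edgeR), and Tmem70, a factor of the ATP synthase (-4.68, SE 1.06, adjusted p = 0.021, edgeR). Coa5 averaged 0.295 CPM in astrocytes, near the floor, so its fitted value depends on the prior count. Tmem70 was also low there, at 1.73 ± 1.42 CPM (SD, n = 4), so its fitted value rests on few counts. Of the 78 genes of the mitochondrial ribosome, 0 were called in each of the 3 comparisons, with medians of -0.24 between astrocytes and progenitors, -0.039 between progenitors and stem cells, and -0.41 between astrocytes and stem cells. Of 18 tested electron carriers and genes of ubiquinone synthesis, 0 were called in any comparison, with a median of -0.37 in progenitors against stem cells.

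Among 10 tested regulators of mitochondrial genes, 1 was called, lower in astrocytes than in progenitors, where 6.18% of all genes were called lower. Tfam, which packages and transcribes mitochondrial DNA, had 0, 0, 1 and 0 counts in astrocytes a to d and 261, 412, 438 and 433 counts in progenitors (adjusted p = 0.011, edgeR). As given above, fewer genes of the whole table reached 10 counts in astrocyte libraries. In stem cells Tfam had 564, 13, 553 and 207 counts, so library 2 lay far below the others, and astrocytes against stem cells did not pass (adjusted p = 0.092). Ppargc1a, the coactivator known for raising mitochondrial content, was at 67.4, 69.8, 58.8 and 89.0 CPM in progenitors and at 226, 134, 191 and 67.4 CPM in stem cells, a difference of -1.14 that did not pass (adjusted p = 0.073, edgeR). Its level in astrocytes ran from 27.2 CPM in astrocyte a to 647 CPM in astrocyte c. Nrf1, Gabpa, Gabpb1, Esrra, Yy1, Pprc1, Tfb2m and Polrmt had adjusted p between 0.16 and 0.95 in all 3 comparisons, and Ppargc1b was not tested.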

How the data were processed

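The authors trimmed reads with AdapterRemoval, discarded reads matching rRNA, mtDNA or PhiX, mapped the remainder to GRCm38.p4 with HISAT2 2.0.6 and obtained unstranded gene counts with featureCounts. The counts are as deposited, not normalized. CASAVA 1.8.2 stands in the submitters' processing notes. Of 50600 gene identifiers, 50376 had a symbol in GENCODE M21 (GRCm38), the source of coordinates, lengths and overlaps. All 12 columns were used.

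Each pair of cell types was fitted on its own 8 libraries with edgeR 4.0.16 in R 4.3.3 (TMM, quasi-likelihood test without robust estimation, at least 10 counts in at least 4 libraries, or 3 where a library was left out). A gene is called at a Benjamini-Hochberg value below 0.05 over all genes tested. DESeq2 1.42.0, which the study used after a transcript filter of its own, was an alternative, without that filter. The script was tested on simulated data. Near-identical copies were searched among M21 transcripts with BLAST 2.17.0, with at least 95% identity over 150 bases. Named genes were up to 10 called ones per direction by size of change, the next by p where fewer than 5 were called, per-length extremes of each complex, tissue-specific paralogs, catalytic subunits, genes at the floor throughout, regulators and called genes of the other lists. The genes and lists were chosen with earlier results of these data known. The alternatives were other scalings, filters and tools, thinned counts and each library left out. Unscaled totals were added after seeing the data.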

Additional observations from a re-analysis of the deposited data

Results flagged for a closer look

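The level of 1 library was set against the others of its cell type with Dixon's test at the 95% level, in 87 groups of 4 values, and 8 were found apart. Chance gives about 1 in 20 groups. Astrocyte a was high in the sum over all genes, at 28343 CPM against 13285 to 13851 CPM, and in Atp5d, at 617 CPM against 144 to 211 CPM. Stem cell 3 was high in the sum of complex V, at 5952 CPM against 5090.1 to 5231 CPM. In progenitors, Cox8a was high in a, at 366 CPM against 263 to 278 CPM, and Atp5b was high in b, at 1613 CPM against 1363 to 1378 CPM. Ndufa12 was low in astrocyte c, at 121 CPM against 146 to 149 CPM. Cox7b2 was at 0.367 CPM in astrocyte b and at 11.4 CPM in stem cell 2, with 0 in the other libraries of each cell type. A single value above 0 is always flagged by this test, and the one in astrocyte b was 2 counts, below the floor.

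The 13 protein-coding genes of mitochondrial DNA, whose reads the authors had removed, still held 1665 counts over the 12 libraries, with at most 169 for a gene in a library. The 10 pseudogene rows that match the symbols of the rule held 1446 counts, or 0.102% of the counts of the 84 genes.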

How the results depend on the processing

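The count of called genes depended on the setting in progenitors against stem cells, where 13 genes were called. It was 1 with unscaled totals, 4 without a count filter, 27 with DESeq2 (all 13 among them) and 0 with all 12 libraries in one fit, and 2 to 12 when a library was left out, with 7, 3, 3 and 2 without progenitors a to d and 8 without stem cell 4. Without stem cell 2, the 12 calls included 2 in the higher direction. The median log2 fold change was -0.28 with unscaled totals and between -0.65 and -0.52 when a library was left out. In astrocytes against progenitors, with 2 calls, there was 1 with unscaled totals (lower in astrocytes), and 0 without a count filter and with at least 10 counts in every library. DESeq2 made 4 calls, 2 higher and 2 lower in astrocytes, and all 12 libraries in one fit gave 4, all higher. When a library was left out there were 0 to 4 (0 without astrocyte c or progenitor a, c or d, and 4 without astrocyte d). The median was -0.048 with unscaled totals, 0.050 with at least 10 counts in every library and between 0.18 and 0.48 when a library was left out, lowest without astrocyte a. In astrocytes against stem cells no alternative made a call, and the median was between -0.36 and -0.06 when a library was left out. The summed level of progenitors was 13811 CPM with unscaled totals. When a library was left out, it was 11361 to 11827 CPM in progenitors, 13484 to 18503 CPM in astrocytes and 16174 to 16649 CPM in stem cells. In progenitors against stem cells, the log2 differences of Atp5a1 (0.081), Atp5b (0.013) and Uqcrfs1 (0.11) changed sign with unscaled totals. Over the named genes and alternatives, 339 values kept direction and side of the threshold, 108 lost a call and 13 gained one. The cause of these changes was not tested. No paired analysis was possible because the astrocyte and progenitor columns carry no replicate numbers. Preamplified cDNA of 50 cells and 4 libraries per cell type limit the precision for genes of low level.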
